A study of Mus musculus with 3 samples.

Results

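The genes described are Fos, Fosb, Fosl1, Fosl2, Jun, Junb, Jund, Atf3, Batf and Maff, which encode subunits of the transcription factor AP-1 or closely related basic leucine zipper (bZIP) proteins. They were taken by symbol from the deposited gene tables and make up 10 of the 55536 mouse gene rows, which include 22028 protein-coding genes. The study measured total RNA, depleted of ribosomal RNA, in the cytosolic fraction of macrophages grown from bone marrow of C57BL/6J mice. All 3 libraries belong to 1 group: the cells received 100 ng/ml Lipid A for 12 hours, were kept without it for 12 hours and then received 100 ng/ml Lipid A again for 120 minutes. Lipid A is the part of bacterial lipopolysaccharide that Toll-like receptor 4 recognises. Untreated cells, cells stimulated only once and the nuclear fraction are not analysed here, so the levels below carry no comparison between conditions. The libraries are labelled biological replicates 1, 2 and 3 and share 1 donor entry, and nothing says that they came from separate animals or cultures, so the spread between them may be technical.

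At this time point the Atf3, Junb, Batf and Jund messages were abundant, those of Jun and Maff were moderate, and those of the Fos family were scarce or near 0. Levels are in transcripts per 1000000 (TPM), a unit corrected for transcript length, so that genes can be set beside each other. Atf3 was the highest of the 10 genes at a mean of 149.8 ± 55.7 TPM (SD, n = 3), and Fosl1 the lowest at 0.0133 ± 0.0153 TPM (SD, n = 3). A level of 1 TPM or more in all 3 libraries was reached by 8 of the 10 genes, against 39.1% of all protein-coding genes. The median over the 10 genes was 19.1, 12.7 and 15.6 TPM in replicates 1, 2 and 3. Over the 8612 protein-coding genes at 1 TPM or more in all libraries the median was 8.03 ± 0.594 TPM (SD, n = 3), and over the 8 genes at that level it was 34.4 ± 6.76 TPM.

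AP-1 is a family of dimers of bZIP proteins. Jun proteins pair with each other or with Fos proteins, whereas Fos proteins need a Jun partner to bind DNA. The dimers recognise the sequence TGANTCA and, with ATF and CREB family partners, TGACGTCA. In macrophages, Toll-like receptor signals reach AP-1 through MAP kinases, which act both on the transcription of its genes and on the proteins. Fos, Fosb, Jun, Junb, Atf3 and Maff are known as early response genes whose messages rise soon after a stimulus, and several of these messages are short-lived because AU-rich elements in their 3′ untranslated regions recruit decay factors such as tristetraprolin. ATF3 can repress inflammatory genes in macrophages, BATF pairs with Jun proteins and with interferon regulatory factors, and MAFF is a small MAF protein without a transactivation domain.

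The promoter stretches of Jun, Fos, Maff and Atf3 are shown because these genes hold matches to AP-1 or CRE-like letters in windows whose RefSeq start lies within 7 bases of the start of the leading transcript. Each runs over the 150 bases before the RefSeq start site (GRCm38.p6, the mm10 assembly), is written 5′ to 3′ on the strand of the gene and has the match in capitals. The stretches lie at chr4:95052223-95052372 on the minus strand for Jun, chr12:85473740-85473889 on the plus strand for Fos, chr15:79347370-79347519 on the plus strand for Maff and chr1:191183334-191183483 on the minus strand for Atf3.
Jun: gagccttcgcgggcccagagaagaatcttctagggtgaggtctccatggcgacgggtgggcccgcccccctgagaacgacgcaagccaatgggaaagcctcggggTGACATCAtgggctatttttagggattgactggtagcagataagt
Fos: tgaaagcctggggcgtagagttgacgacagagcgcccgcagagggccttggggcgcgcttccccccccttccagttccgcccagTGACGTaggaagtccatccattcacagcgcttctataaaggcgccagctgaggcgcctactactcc
Maff: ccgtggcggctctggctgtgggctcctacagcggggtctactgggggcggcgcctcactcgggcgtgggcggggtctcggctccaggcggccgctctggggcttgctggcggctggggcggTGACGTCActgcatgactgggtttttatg
Atf3: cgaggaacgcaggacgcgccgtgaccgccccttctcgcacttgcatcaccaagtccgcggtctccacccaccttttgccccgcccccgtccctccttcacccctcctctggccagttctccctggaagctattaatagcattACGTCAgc
The search took RefSeq windows of 300 bases, from 250 bases before to 50 bases after the start site, on both strands. Of the 10 genes, 9 had a window in the table used. The letters TGANTCA, TGACGTCA and the CArG box, the element that serum response factor binds, were searched, and TGACATCA and TGACGT were added after the results for the others had been seen. The letters TGACGT lie within TGACGTCA, so every match of the longer form is also a match of the shorter.

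Maff held the full form TGACGTCA with its first base at position -29 from the start site, a form present in 1.79% of the 32851 windows of that length. Jun held TGACATCA at position -45, present in 3.62% of windows. An AP-1-like element is a textbook feature of the Jun promoter. Another annotated start of Maff, 882 bases from the start of its leading transcript, also had TGACATCA at position -45. Fos held TGACGT at -66 and Batf, whose RefSeq start lay 51 bases from that of its leading transcript and which is not shown, held it at -98, while Atf3 held it on the other strand, read as ACGTCA, at -8. These letters were in 7.51% of all windows. The leading transcript of Atf3 starts 7 bases upstream of the RefSeq start used, so the Atf3 match spans the start of that transcript. TGANTCA, present in 7.81% of all windows, and the CArG box, present in 1.63%, were in none of the windows of these genes. The serum response element described for Fos lies farther upstream than this window. For Jund and Fosl2 the RefSeq start lay 1210 and 671 bases from the start of the leading transcript, so their windows may not cover the promoter used here.

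The 3′ untranslated regions of the leading transcripts (GENCODE M21, mm10) differed in their number of ATTTA pentamers, the core of AU-rich elements. The stretches of 30 bases that hold the most pentamers are shown for the genes with 4 or more, with each pentamer in capitals. They are centred on those pentamers, and the first was taken where several tied. They lie at chr12:85477100-85477129 on the plus strand for Fos, chr4:95049207-95049236 on the minus strand for Jun, chr15:79358894-79358923 on the plus strand for Maff and chr5:32156864-32156893 on the plus strand for Fosl2.
Fos: ttgtgttttcaATTTATTTAttaagatgga
Jun: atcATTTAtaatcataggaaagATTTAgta
Maff: aaatcacATTTAatcttatATTTAgggaga
Fosl2: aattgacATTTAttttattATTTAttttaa
Fosl2 had 8 pentamers in 4653 bases, Fos had 4 in 815 bases, Jun had 4 in 1233 bases and Maff had 4 in 1221 bases. Per length Fos was the densest of the 10 genes, with 4.91 pentamers per 1000 bases, above 92.8% of the 8458 expressed protein-coding genes with such a region. Atf3 had 3 pentamers, Junb had 2, and Jund, Fosb and Fosl1 had 1 each. Batf had 0. Over the expressed genes the median was 1 pentamer, and 33.0% had 3 or more. A match describes the letters only and shows neither binding nor decay.

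**Figure D1:**
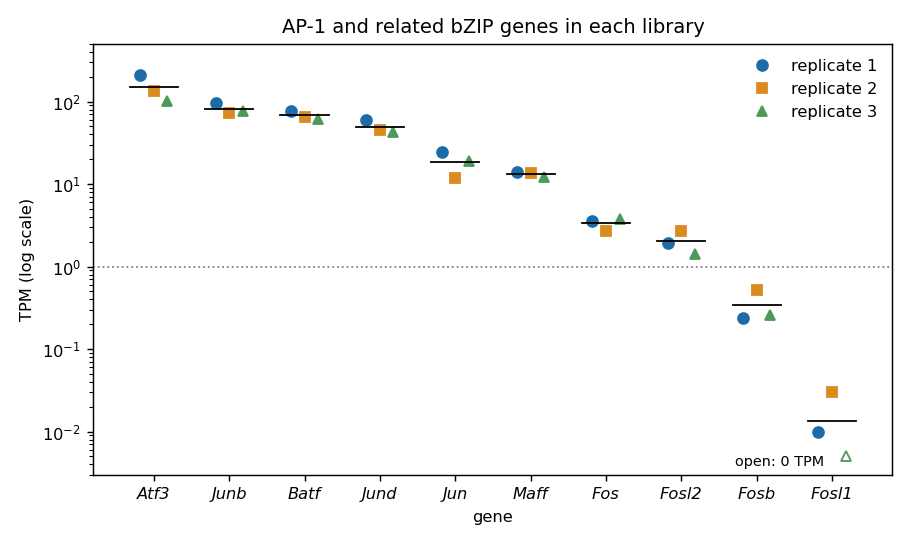
Levels of the 10 genes in each library, in TPM on a log axis, with 1 point per replicate and a horizontal bar at the mean; the dotted line marks 1 TPM and the open point a value of 0. From Atf3, between 102 and 211 TPM, the levels descend to Fosl1, at 0.03 TPM or less, and Fosb and Fosl1 are the genes below the line in every library.

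Among the Jun family, the obligate core of AP-1 dimers, Junb was the highest. Junb, a subunit that activates some targets and restrains others, was at 96.8, 72.2 and 77.6 TPM in replicates 1, 2 and 3, a mean of 82.2 ± 12.9 TPM (SD, n = 3). It ranked 563 among the protein-coding genes, and replicates 2 and 3 lay close together below replicate 1. Jund, the family member usually described as constitutively expressed, was at 60.0, 45.9 and 43.4 TPM, a mean of 49.8 ± 8.93 TPM (SD, n = 3).

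Jun, the founding member and a target of JNK, was at 24.2, 12.0 and 19.2 TPM, a mean of 18.5 ± 6.18 TPM (SD, n = 3). Its lowest value was in replicate 2, on each of the 4 scales examined. Jund was 2.69-fold higher than Jun by their means, and the ranges of their library values did not overlap. Jun and Jund are genes of a single exon with 1 annotated transcript each. The annotation places an antisense gene, Gm11175, over 877 exon bases of Jund. Whether the counting used strand is not given in the sources used here, so reads of these genes may not be told apart. Of the 10 genes, Jund is the one whose count differed most between the deposited quantifications: the second quantification, a separate transcript table of each library, gave 1.46 times the count of the gene table, above the ratio of 99.2% of expressed protein-coding genes (median 1.10), whereas the other 9 genes had ratios of 1.03 to 1.12. Gm11175 had 163, 7.77 and 180.2 expected counts in the gene table and 0, 9.05 and 0 in the second quantification. Jund had 4000, 8084 and 4338 in the gene table and 5409, 11957 and 6586 in the second quantification. These are the counts assigned to each gene, and the reads over the shared bases were not counted apart. The source of the change in Jund was not tested. Junb shares 173 exon bases with Prdx2 and Jun shares 232 with Junos, both on the opposite strand.

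The Fos family, whose proteins form the most stable AP-1 dimers with Jun proteins, was low throughout. Fos, the prototype early response gene, was at 3.57, 2.74 and 3.82 TPM, a mean of 3.38 ± 0.565 TPM (SD, n = 3), and its highest value was in replicate 3. Fosl2, which encodes FRA-2, was at 1.95, 2.71 and 1.42 TPM, a mean of 2.03 ± 0.648 TPM (SD, n = 3), with replicate 2 highest and replicate 3 lowest. Every Fos value lay above every Fosl2 value, though the lowest Fos value, 2.74 TPM, was only just above the highest Fosl2 value, 2.71 TPM, and in the second quantification the ranges overlapped.

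Fosb was under 1 TPM in every library, at 0.24, 0.52 and 0.26 TPM from 26, 179 and 56 expected counts. Fosl1, which encodes FRA-1, had 1.04, 5.63 and 0 expected counts. In replicate 3 its count of 0 allows up to 3 counts, or 0.0798 counts per 1000000 (CPM) of the unscaled library, with counting error the only error covered. Fosl1 shares 1163 exon bases with Ccdc85b on the opposite strand, so even these few counts are of uncertain origin.

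Summed over their members, the Jun family stood at 181, 130.1 and 140.3 TPM and the Fos family at 5.77, 6.00 and 5.50 TPM in replicates 1, 2 and 3. The Jun family sum was the higher in each library, by 4.97, 4.44 and 4.67 on the log2 scale, a mean of 4.69 ± 0.27 (SD, n = 3). As a ratio this is 26.2 ± 4.88 (SD, n = 3). CPM, which are not corrected for length, gave a smaller log2 ratio of 3.78 ± 0.45 (SD, n = 3), and the second quantification gave 4.51 ± 0.28. These are ratios of messages in the cytosol and say nothing of the amounts of protein.

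Atf3, a member of the ATF/CREB family induced by stress and by Toll-like receptor ligands, was at 211, 136 and 102 TPM. In these TPM replicate 1 was well above the others and replicate 3 was the lowest. In the second quantification Atf3 was at 92.7, 89.6 and 52.3 TPM, in the same order but with replicates 1 and 2 close together. On the log2 scale of those TPM the median expressed protein-coding gene was shifted by -0.21 in replicate 1 against the other libraries. The shift of replicate 2 was 0.21. With protein-coding and long noncoding genes alone as the total, the second values of Atf3 were 674, 562 and 377 TPM. Atf3 ranked 278 among the protein-coding genes, and 2.04% of these averaged 100 TPM or more. Its share of the summed TPM of the 10 genes was 43.1%, 38.8% and 31.7% in replicates 1, 2 and 3.

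Batf was at 77.3, 65.7 and 62.4 TPM, a mean of 68.5 ± 7.79 TPM (SD, n = 3), lower than Junb in every library although their ranges overlapped. Irf8, which encodes a partner that BATF binds, was at 31.3 ± 7.25 TPM (SD, n = 3), and Irf4, another partner, at 0.42 ± 0.174 TPM. Maff was at 14.0, 13.5 and 12.1 TPM, a mean of 13.2 ± 1.00 TPM (SD, n = 3), and had the smallest relative spread of the 10 genes in TPM.

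In the order of the 10 genes by mean TPM, 7 of the 9 neighbouring pairs had ranges that did not overlap. The ranges of Junb and Batf overlapped, with Junb the higher in 3 of 3 libraries, and those of Jun and Maff overlapped, with Jun the higher in 2 of 3. In the second quantification 5 of the 9 pairs lay apart, an alternative chosen after seeing the data: Batf and Jund, 1.38-fold apart by their means in the gene table, were 1.06-fold apart with overlapping ranges, and the ranges of Fos and Fosl2 overlapped too. The steps between Jund and Jun, Maff and Fos, Fosl2 and Fosb, Fosb and Fosl1, and Atf3 and Junb were 1.82-fold or more in both, with ranges apart.

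The 38 other bZIP genes of a list of the superfamily placed these levels in context. Of all 48 bZIP genes, 40 were at 1 TPM or more in every library. Atf3 was the highest of them and Junb, Batf and Jund were 4th, 5th and 8th. The highest of the others were Nfe2l2, which encodes the oxidative stress factor NRF2, at 105 ± 28.4 TPM (SD, n = 3), Ddit3, which encodes the stress factor CHOP, at 97.9 ± 34.8 TPM, and Atf4, the integrated stress response factor, at 66.0 ± 17.4 TPM. Jun was 14th and Maff 20th, Fos was 36th, Fosl2 38th and Fosb 42nd, and Fosl1 was 47th, with Hlf alone lower at 0.00333 TPM. Nfe2l2 was at 138, 93.1 and 84.9 TPM, so its range overlapped that of Atf3, while Atf3 was the higher in each library.

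**Figure D2:**
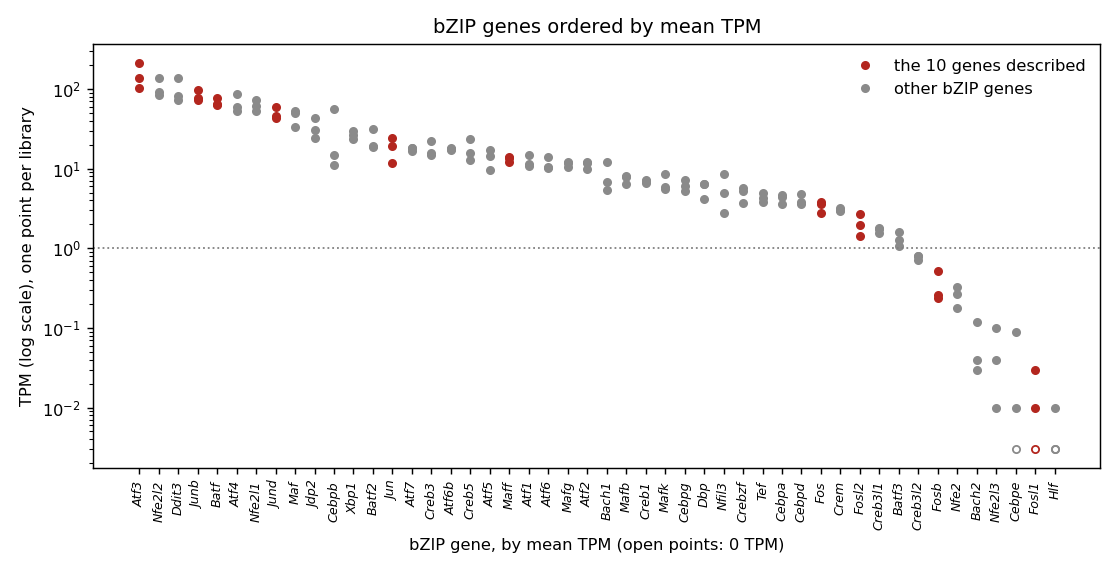
The 48 bZIP genes ordered by mean TPM, with 1 point per library on a log axis; the 10 genes described are in red, the others in grey, open points are values of 0 and the dotted line marks 1 TPM. Red points hold 4 of the 10 highest places, whereas Fosb and Fosl1 lie among the genes under the line.

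The libraries differed in composition, and this bears on every difference between them. Expected counts over gene rows totalled 29273913, 64712406 and 37602753. The share of TPM in protein-coding genes was 32.5%, 26.5% and 27.1%, and the median expressed gene was 0.19 higher in replicate 1 than in the other libraries on the log2 TPM scale and 0.12 lower in replicate 2. Differences between libraries are therefore given in CPM scaled by the trimmed mean of M values (TMM), on which those shifts were -0.01 and 0.07. The shift of replicate 3 was -0.07 in TPM and still -0.06 in TMM-scaled CPM. Replicate 3 stood apart in nuclear-retained RNAs, with Malat1 at 191, 133 and 952 TPM, Neat1 at 14.3, 10.9 and 55.7 TPM and Gm26917 at 112.5, 31.2 and 985 TPM, and in mitochondrial protein genes, at 1.46% of protein-coding TPM against 0.473% and 0.470%. Of 15 macrophage markers 14 were at 1 TPM or more in every library, led by Lyz2 at 2751 TPM, with Cd163 at 0.0367 TPM. Their sum ranged from 7661 to 8716 TPM. The summed markers of other cell types ranged over the libraries from 27.6 to 45.7 TPM for neutrophils (Csf3r highest, Retnlg at 0), 9.38 to 12.3 for T and NK cells (Cd4 highest), 4.66 to 11.0 for endothelium (Kdr highest, Tek and Cldn5 at 0), 1.31 to 1.79 for B cells (Cd79b highest), 1.23 to 1.87 for dendritic cells (Ccr7 highest, Cd209a at 0), 0.13 to 0.25 for mast cells (Kit highest) and 0.14 to 0.28 for fibroblasts (Pdgfrb highest, Col3a1 at 0). In bulk samples fewer cells with a message and less message per cell cannot be told apart.

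On TMM-scaled CPM the genes differed in how far the libraries lay apart. Atf3 was at 592, 464 and 317 CPM, a 1.87-fold range, with replicate 1 highest and replicate 3 lowest. Jun was at 115, 68.4 and 100.4 CPM, a 1.68-fold range, with replicate 2 alone low. Fosl2 was at 18.6, 32.6 and 13.9 CPM, a 2.34-fold range, with replicate 2 alone high. These 3 genes had the same highest and the same lowest library on all 4 scales examined. Their coefficients of variation exceeded those of 94.5%, 90.8% and 98.5% of the 8612 expressed protein-coding genes.

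Fos moved by 1.47-fold, at 9.81, 8.0 and 11.8 CPM, and Fosb by 3.15-fold, at 0.902, 2.84 and 1.43 CPM. The steadiest were Junb, at 246, 222 and 217 CPM, and Batf, at 90.5, 93.7 and 79.2 CPM, with ranges of 1.13-fold and 1.18-fold. Maff spanned 1.22-fold and Jund, at 139, 128 and 111 CPM, slightly more, near the median of 1.23-fold over the expressed genes. The highest library of Junb, Batf, Jund and Maff, and the lowest of Junb, Maff and Fos, depended on the scale. Replicate 1 was the highest library for 4 of the 8 expressed genes on the CPM scale and for 6 in TPM, against 34.9% and 63.2% of the expressed protein-coding genes. Replicate 3 was the lowest library for 6 of the 8 expressed genes on the CPM scale and for 5 in TPM, against 39.0% and 35.1%. Replicate 3 is also the library with the most nuclear and mitochondrial RNA, and the part of these in the levels of the 10 genes was not tested.

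**Figure D3:**
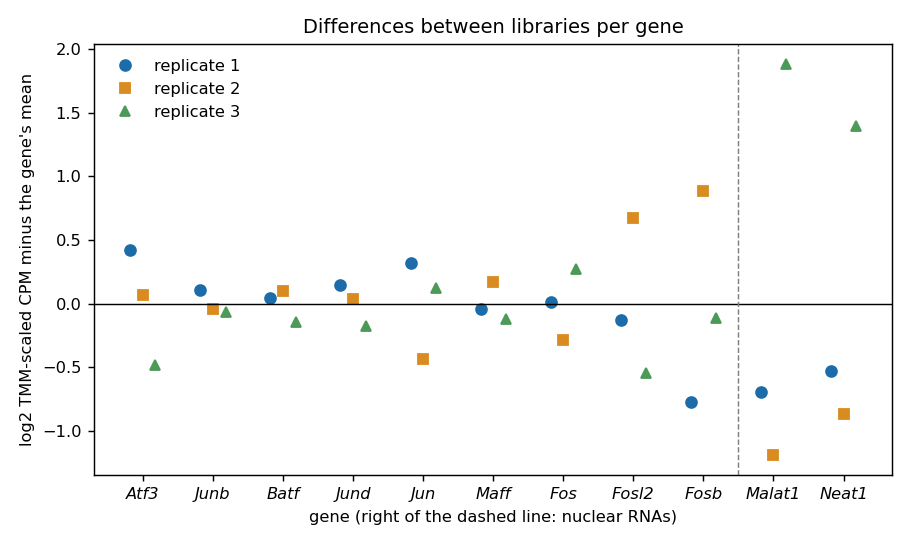
Difference of each library's log2 TMM-scaled CPM from the mean of the gene over the libraries, for the 9 genes with enough counts and, right of the dashed line, for Malat1 and Neat1. Fosl2 and Fosb are highest in replicate 2 and Jun is lowest there, Atf3 runs from 0.42 in replicate 1 to -0.48 in replicate 3, and Malat1 reaches 1.89 in replicate 3.

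A chi-square test of the expected counts against equal shares of the scaled library sizes compared the libraries with counting error alone. With Benjamini-Hochberg adjustment at 0.05 it called 72.0% of the 14568 genes tested uneven and 80.2% of the expressed protein-coding genes. Of the 10 genes, 9 had enough counts and all 9 were called, the largest adjusted p of this chi-square test being 3.77e-08, for Fos. The count of 9 is near that background. The test lost Junb without replicate 1, Fosb and Maff without replicate 2 and Batf without replicate 3, where 57.1%, 52.5% and 54.0% of all genes were called. The calls of Atf3, Jun, Jund, Fos and Fosl2 were kept when each library was left out in turn.

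Transcript tables showed which isoforms carried the messages. All 8 genes with more than 1 annotated transcript had the same leading transcript in both quantifications, in each case the form numbered 201, which encodes protein. In the first quantification Atf3-201 held 99.8% of the TPM of its gene, Junb-201 held 100%, Maff-201 held 99.3% and Batf-201 held 98.9%. The second quantification left Junb and Batf at 99.6% and 98.6% but gave Atf3-201 83.5 ± 5.21% (SD, n = 3), with 16.5% for Atf3-202, a transcript of 517 bases annotated without a coding sequence. Atf3-202 had 14.5, 0 and 0 expected counts in the first quantification and 495, 1395 and 315 estimated counts in the second. The whole gene had 18298, 30536 and 13391 estimated counts there, so the short Atf3-202 weighed less in counts than in TPM.

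Fos and Fosl2 also differed between the quantifications. Fos-201 held 84.5 ± 8.78% (SD, n = 3) of Fos in the first quantification and 60.6 ± 9.31% in the second, and the noncoding Fos-202 held 15.5% and 39.1%. Fosl2-201 held 91.2 ± 8.65% and 66.2 ± 5.88%, and the retained-intron form Fosl2-203 held 6.56% and 31.6%. Fosb-201 held 57.8 ± 13.8% and 61.5 ± 10.4%. Its shares in replicates 1, 2 and 3 were 54.2%, 46.2% and 73.1% in the first quantification. In the second they were 52.1%, 59.8% and 72.6%, so replicate 2 alone was higher there. In counts the short Fos-202 weighed less, with 7.66, 35.3 and 10.02 of the 283, 504 and 461 expected counts of Fos in the first quantification and 32.1, 95.1 and 47.3 of 300.0, 550.0 and 505 estimated counts in the second.

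**Figure D4:**
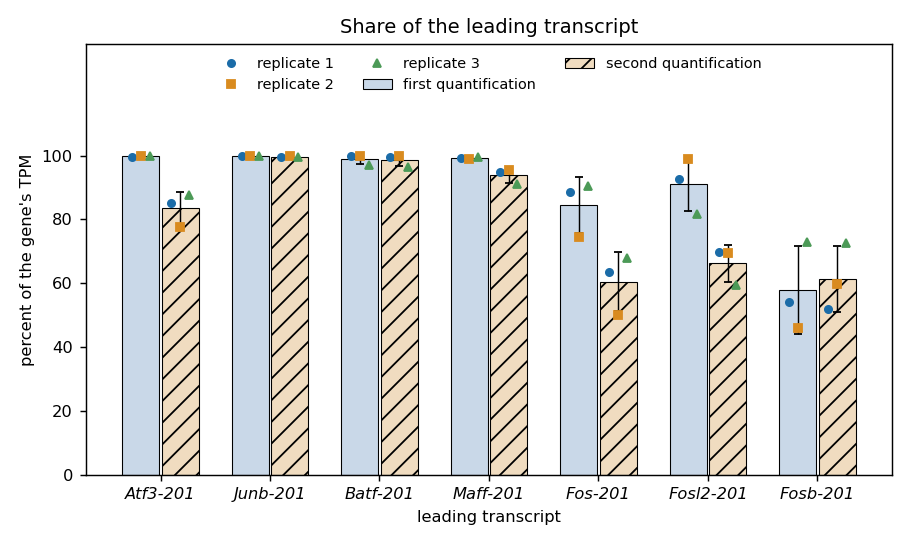
Share of the TPM of each gene held by its leading transcript, in percent, in the first quantification (plain bars) and the second (hatched bars); bars are means, error bars SD and points the 3 libraries. Junb-201, Batf-201 and Maff-201 stay above 90% in both, while Atf3-201, Fos-201 and Fosl2-201 are lower in the second.

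Genes upstream of AP-1 were examined as a list of 27 MAP kinases, their kinases and serum response factor with its partners. Of these 21 were at 1 TPM or more in every library. Mapkapk2, the p38 effector kinase that limits decay of AU-rich messages, was the highest at 125 ± 28.2 TPM (SD, n = 3), followed by Mapk3, which encodes ERK1, at 33.5 ± 6.02 TPM and Map2k1, which encodes MEK1, at 30.1 ± 7.97 TPM. Mapk10, the JNK gene best known from neurons, was listed at 0 TPM in all libraries, with 0.0255 CPM in replicate 3. The chi-square test called 22 of 24 tested genes of this list uneven and 30 of 36 tested genes of the other bZIP list.

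Of 13 measured regulators of the turnover of AP-1 messages and proteins, 12 were at 1 TPM or more in every library, and 10 of 13 were called uneven. Zfp36, which encodes tristetraprolin, was the highest at 108, 50.4 and 49.0 TPM, with replicate 1 alone high. Cop1, a ubiquitin ligase for JUN, was at 24.5 ± 0.911 TPM (SD, n = 3), Dusp2, a MAP kinase phosphatase, at 24.2 ± 8.11 TPM, and the lowest was Usp28, a deubiquitinase, at 0.847 ± 0.104 TPM. The median level of the list was 15.9, 9.22 and 11.9 TPM.

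Among 22 genes with textbook AP-1 sites or dependence, 17 were at 1 TPM or more in every library and the median was 18.8, 23.7 and 15.3 TPM. The highest were Tnf at 505 ± 106 TPM (SD, n = 3), Spp1, which encodes osteopontin, at 439 ± 110 TPM and the chemokine gene Ccl2 at 337 ± 111 TPM, and the lowest was Mmp3, a matrix metalloproteinase, at 0.00333 TPM. All 21 tested genes of the list were called uneven. Replicate 3 was lowest in CPM for 13 of its 17 expressed genes and for 19 of the 32 expressed genes of the other bZIP list. The same held for 7 of the 12 of the turnover list and 10 of the 21 of the MAP kinase list. Over all expressed protein-coding genes the share was the 39.0% given above. The median coefficient of variation of these target genes was 38.1%, against 15.2% for the 8 expressed AP-1 and related genes and 11.0% for all expressed protein-coding genes.

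The protein-coding genes nearest in level over the 3 libraries were found for the 3 highest genes by Euclidean distance of log2(TPM + 1). Atf3 lay nearest to Gadd45b, a stress-induced gene, at a distance of 0.211 and to Plin2, a lipid droplet coat gene, at 0.233. Junb lay nearest to Myl12b at 0.0513 and Slc25a3 at 0.0565, and Batf to Dynll1 at 0.0396 and Mlf2 at 0.0679. The second quantification kept 1 of these 6 genes, so nearness in level over 3 libraries depended on the quantification.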

How the data were processed

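For each library the authors deposited a gene table and a first transcript table of expected counts and TPM, and a second transcript table of estimated counts and TPM, as the file headers name them. The deposited notes name mm10 and GENCODE M21. The aligner, the quantifiers and the use of strand were not given in the sources used here. Of 81881 rows per table, 26345 name no gene (tRNA, spike-in and phage rows) and stayed out of library sizes and tests; their share of expected counts was 0.350%, 0.169% and 0.168% in replicates 1 to 3.

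TMM scaling (edgeR 4.0.16) and DESeq2 1.42.0 size factors (R 4.3.3) took the expected counts after rounding to whole numbers. Genes entered the chi-square test (scipy 1.17.1), which was tested on simulated data, with 10 or more counts in any library. Tables were handled with pandas 2.3.3 and numpy 2.4.6 in Python 3.11.15, and plots drawn with matplotlib 3.10.9. Rescaled TPM take protein-coding and long noncoding genes alone as their total, and the second table was summed per gene. The 4 scales are deposited, rescaled and second-quantification TPM and TMM-scaled CPM. Nearness used a pseudocount of 1. Alternatives were DESeq2 size factors, a minimum of 1 count, thresholds of 5 and 0.5 TPM, a pseudocount of 0.1, the other scales, and leaving out each library.

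The genes named are all 10 members, the 3 highest and the lowest gene of each other list, the 2 genes nearest to each of the 3 highest members, Malat1, Neat1 and Gm26917, and the highest gene of each marker list; a marker listed at 0 or a gene overlapping a member was named after its values were seen, as was Cd163. The members and lists were chosen with earlier results of these data known. The planned display of protein stretches was left out because no protein sequences were used here. Rfwd2, an older symbol of Cop1, matched no row. The erythroid marker list is not reported here.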

Additional observations from a re-analysis of the deposited data

How the results depend on the processing

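The members' median of 15.8 TPM was 53.5 in rescaled TPM and 7.36 in the second quantification, and ranged from 14.2 to 17.4 when each library was left out. The log2 ratio of the Jun to the Fos family, 4.69, was 3.78 in TMM-scaled CPM, which leaves out the length correction, and ranged from 4.56 to 4.82 without 1 library. The count at 1 TPM or more was 8 with any library left out, 6 at 5 TPM and 7 in the second quantification. The share of all protein-coding genes, 39.1%, was taken only for 1 TPM in all libraries of the gene table. These other counts therefore have no such share beside them. Neighbouring pairs with ranges apart numbered 7 of 9, 8 in rescaled TPM, 5 in the second quantification and 7 to 9 without 1 library. The count called uneven was 9 of 9 tested with DESeq2 size factors and in the second quantification, where 71.8% and 82.9% of all tested genes were called. With a minimum of 1 count it was 9 of 10, against 50.3% of all tested genes. Without 1 library it was 7 to 8 of 9, against 52.5% to 57.1%. Of the results for single genes and for nearest genes, 20 moved. All but the nearest genes, which have no SD, were means that moved by more than their SD. These means were under the rescaled or second TPM, whose denominators differ. The cause of the change in nearest genes was not tested. No paired analysis was possible because all libraries belong to 1 group. Depth limits Fosb, at 26 to 179 expected counts, and Fosl1, at 6 or fewer. With 3 libraries, SDs are imprecise, and intervals cover counting error only.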

Other observations

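In the first quantification, transcripts annotated as retained introns held few counts of the AP-1 and related genes, and most were in replicate 3. Summed over the 10 genes they had 13.1, 9.46 and 77.4 expected counts in replicates 1, 2 and 3. Batf-202 had 2, 2 and 39, Fosl2-202 had 2.15, 1.13 and 20.1 and Fosl2-203 had 8.97, 6.33 and 17.0. The second quantification gave Fosl2-203 more, at 53.1, 208 and 71.1 estimated counts, with replicate 2 highest. There Batf-202 had 5.01, 4.01 and 56.2 and Fosl2-202 had 2.16, 3.40 and 25.7. The library with the most counts, unscaled for library size, thus depended on the quantification. As a share of the TPM of Fosl2, its retained-intron transcripts were highest in replicate 3 in both. They held 7.18%, 1.11% and 18.2% in the first quantification and 30.1%, 30.6% and 40.5% in the second. Over all protein-coding genes such transcripts held 1.47%, 1.52% and 2.47% of the expected counts, also highest in replicate 3, the library with the most Malat1 and Neat1. A part of nuclear RNA in these counts was not tested.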
